A study of Homo sapiens with 12 samples.

Results

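Untreated SEM-K2 cells were compared with untreated RS4:11 cells over all genes measured, as 2 vehicle arrays of SEM-K2 against 2 vehicle arrays of RS4:11, 4 of the 12 arrays of the series. SEM-K2 and RS4:11 are established human cell lines of acute lymphoblastic leukaemia that carry the fusion of KMT2A (MLL) with AFF1 (AF4). The other 8 arrays hold the same lines after obatoclax, a small molecule directed at the antiapoptotic BCL2 proteins, at its EC50 or at 3 times that concentration (3xEC50). The groups were SEM-K2 with vehicle, RS4:11 with vehicle, and each line at both doses, all for 6 h and with 2 biologic replicates each. Each line stands for 1 leukaemia kept in culture, so a difference between the lines is a difference between these 2 cultures and not between kinds of leukaemia. The members were the arrays whose labels name the line and the vehicle.

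KMT2A is a histone methyltransferase, and AFF1 belongs to a complex that releases RNA polymerase II into elongation. Their fusion holds that complex on KMT2A target genes such as MEIS1, and the leukaemia it drives usually has the features of an early B cell precursor with some myeloid genes. A B cell precursor is defined by the factors EBF1 and PAX5, by the recombinases RAG1 and RAG2 with the polymerase DNTT, and by the surrogate light chain genes VPREB1 and IGLL1.

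Values are the authors' GCRMA values on the log2 scale, 1 probe set per gene, and a mean under 4 was treated as not above the floor of detection. The threshold for calling a gene was 0.05 for the adjusted p (limma over all 12 arrays, Benjamini-Hochberg over 10561 genes), and differences are SEM-K2 minus RS4:11, with ± for the SE. Each array had 41.7% to 42.8% of its probe sets above the floor. The replicate arrays correlated at 0.985 in SEM-K2 and at 0.986 in RS4:11, and arrays of different lines at 0.891 to 0.899. RS4:11 vehicle replicate 1 had the most signal from the 18S ribosomal RNA control, at 9.85 against at most 6.98 on the other arrays. Leaving it out left 1 RS4:11 vehicle array. Fewer genes were called without any 1 of the 4 vehicle arrays, so a fall without this array is not particular to it. Of the 13 myeloid markers measured, 3 lay above the floor in SEM-K2 and 3 in RS4:11. The counts were 1 and 1 of 14 for T and NK cells, 2 and 2 of 9 for red cells and platelets, and 3 and 3 of 11 for fibroblasts and epithelium. MPO, ELANE, CD3E and HBB, which define such cells, were below the floor on every vehicle array.

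The lines differed in 2074 genes, which is 19.6% of those tested. Of these, 1060 (10%) were higher and 1014 (9.6%) lower in SEM-K2, and 1260 differed by at least 2-fold. The differences reached far beyond the spread of the replicates: 143 genes were at least 8-fold higher and 100 at least 8-fold lower in SEM-K2. In 306 of the higher genes RS4:11 lay below the floor, and in 168 of the lower genes SEM-K2 did, so their folds are lower bounds. On the 4 vehicle arrays alone the same test called 1319 genes. Leaving out RS4:11 vehicle replicate 2 lowered the number of higher genes to 666, and leaving out SEM-K2 vehicle replicate 2 lowered the number of lower genes to 658.

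The largest rise in SEM-K2 was that of LAPTM4B, a lysosomal membrane protein gene, with values of 13.07 and 13.04 in SEM-K2 and 2.49 and 2.43 in RS4:11. It was at least 532-fold higher (log2 difference 10.59 ± 0.13, adjusted p = 1.44e-10). ROBO1, a receptor for the guidance cue SLIT, followed with 11.79 and 12.02 in SEM-K2 and 2.75 and 2.74 in RS4:11, at least 239-fold higher (9.16 ± 0.20, adjusted p = 4.13e-09). CDKN2A, which encodes cell cycle inhibitors, was at least 141-fold higher. TRIB2, a pseudokinase gene, was at least 109-fold higher and BANK1, an adaptor gene of B cell receptor signalling, at least 98-fold. MARCKS, a substrate of protein kinase C, was at least 87.3-fold higher, PAWR, a proapoptotic gene, at least 74.9-fold, and PXDN, a matrix peroxidase gene, at least 72.7-fold. BEND4 (80.1-fold), GOLGA8A (76.9-fold), the tubulin gene TUBB6 (67.8-fold) and the glutamate receptor partner NETO2 (61.1-fold) completed the 12 largest, all as lower bounds. GOLGA8A has near-identical copies, and its probe set may read several of them.

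The largest fall was that of PRL, the hormone prolactin, with 2.21 and 2.99 in SEM-K2 and 12.68 and 12.71 in RS4:11. It was at least 415-fold lower in SEM-K2 (log2 difference -10.10 ± 0.37, adjusted p = 7.59e-08). GTSF1, a cofactor of the piRNA pathway, had 2.09 and 2.19 in SEM-K2 and 11.70 and 11.46 in RS4:11, at least 191-fold lower. CCN2, a secreted matricellular protein gene, was 128-fold lower, at 5.50 and 4.59 in SEM-K2 and 12.17 and 11.90 in RS4:11. The surface glycoprotein gene CD24 was 106-fold lower. TNFSF4, the ligand of OX40, a costimulatory receptor on T cells, was at least 82.1-fold lower and PLCB1, a phospholipase C, at least 71.1-fold. IGF2BP2, an oncofetal RNA-binding protein gene, was 69.4-fold lower, at 4.44 and 4.48 in SEM-K2 and 10.58 and 10.57 in RS4:11. ASS1, argininosuccinate synthase, was at least 67.2-fold lower, and EFEMP1, a fibulin gene of the matrix, at least 61.0-fold. NRN1 (51.5-fold), the G protein modulator GPSM1 (49.8-fold) and the adhesion molecule NEGR1 (43.9-fold) made up the 12, as lower bounds. In all of these genes the arrays of the lines did not overlap, which was a condition for naming them. The same was the case for 55.7% of all genes tested.

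**Figure D1:**
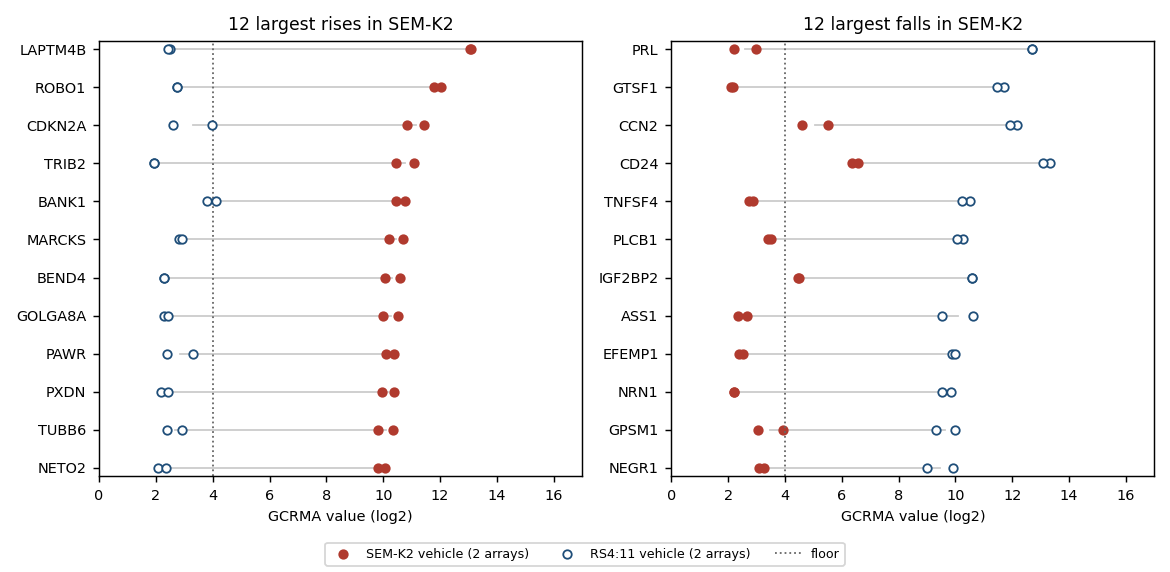
GCRMA value (log2, horizontal) of the 12 largest rises and the 12 largest falls in SEM-K2, with 1 point for each vehicle array, filled for SEM-K2 and open for RS4:11, and a dotted line at the floor of 4. LAPTM4B stands at 13.07 and 13.04 in SEM-K2 and under the floor in RS4:11, and PRL the other way round.

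The difference between the lines was also fitted on the 8 obatoclax arrays alone. The vehicle calls take their spread between arrays from all 12 arrays, and probe sets and genes tested were chosen over all 12, so the calls of both sets are not independent. In the obatoclax arrays 3571 genes (33.8%) were called, 2070 higher (19.6%) and 1501 lower (14.2%) in SEM-K2. Of the 2074 genes called in vehicle, 1965 (94.7%) were called in the same direction in the obatoclax arrays, 107 were not called there, and 2 were called in the opposite direction. Of the 1319 genes called on the 4 vehicle arrays fitted alone, 1280 (97%) were called in the same direction in the obatoclax arrays and 39 were not called. One of these 2 is EYA1, a transcriptional coactivator gene, with 4.37 and 4.39 in SEM-K2 vehicle and 5.10 and 5.81 in RS4:11 vehicle, and a difference of 1.10 in the obatoclax arrays. The other is ZKSCAN3, a zinc finger gene that represses autophagy genes, at -0.56 in vehicle (adjusted p = 0.0494) and 0.42 in the obatoclax arrays (adjusted p = 0.0466), named here after its values were seen. The change of EYA1 between vehicle and 3xEC50 did not pass the test of the difference itself (adjusted p = 0.0625). EYA1 was no longer called without SEM-K2 vehicle replicate 1 (adjusted p = 0.0517), without SEM-K2 vehicle replicate 2 (adjusted p = 0.051) or without RS4:11 vehicle replicate 2 (adjusted p = 0.0729).

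**Figure D2:**
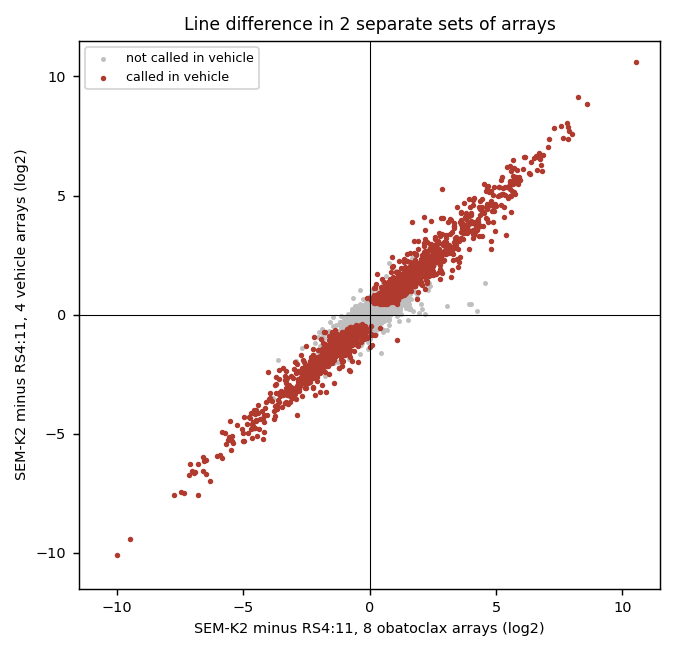
Difference between the lines per gene in the 4 vehicle arrays (vertical, log2) against that in the 8 obatoclax arrays (horizontal, log2), red where the gene was called in vehicle. Of the 2074 red points, 1965 were also called in the same direction in the obatoclax arrays.

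Gene lists for 6 classes were then read against these shares. The lists were chosen with earlier results of these data known, so their shares describe the lists and are no test of a class. Of lineage genes 83 of 160 tested were called (51.9%), of adhesion genes 101 of 244 (41.4%), of signalling genes 181 of 484 (37.4%), of immune genes 32 of 109 (29.4%) and of metabolic genes 171 of 625 (27.4%). Lists for the cell cycle, cell death, chromatin, ribosomes and cancer-testis and oncofetal genes together gave 37 of 248 (14.9%), below the 19.6% over all genes. Lineage genes gave 30 higher and 53 lower calls in SEM-K2, and this lean was not shared by all their lists. It lay mainly in B cell precursor genes (1 higher and 16 lower) and lymphoid transcription factors (4 higher and 14 lower). Stem and progenitor genes (6 higher and 4 lower) and developmental factors outside the HOX clusters (6 higher and 1 lower) did not lean lower. Adhesion genes leaned higher (69 higher and 32 lower, median difference 0.22 against 0.01 over all genes). Of adhesion genes on chromosome 8, 7 were higher and 0 lower, and on chromosome 13, 2 were higher and 1 lower. Signalling genes divided evenly, with 92 higher and 89 lower. The counts of each list below are read against 10% higher and 9.6% lower over all genes. A list near those shares is not set apart by its count.

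**Figure D3:**
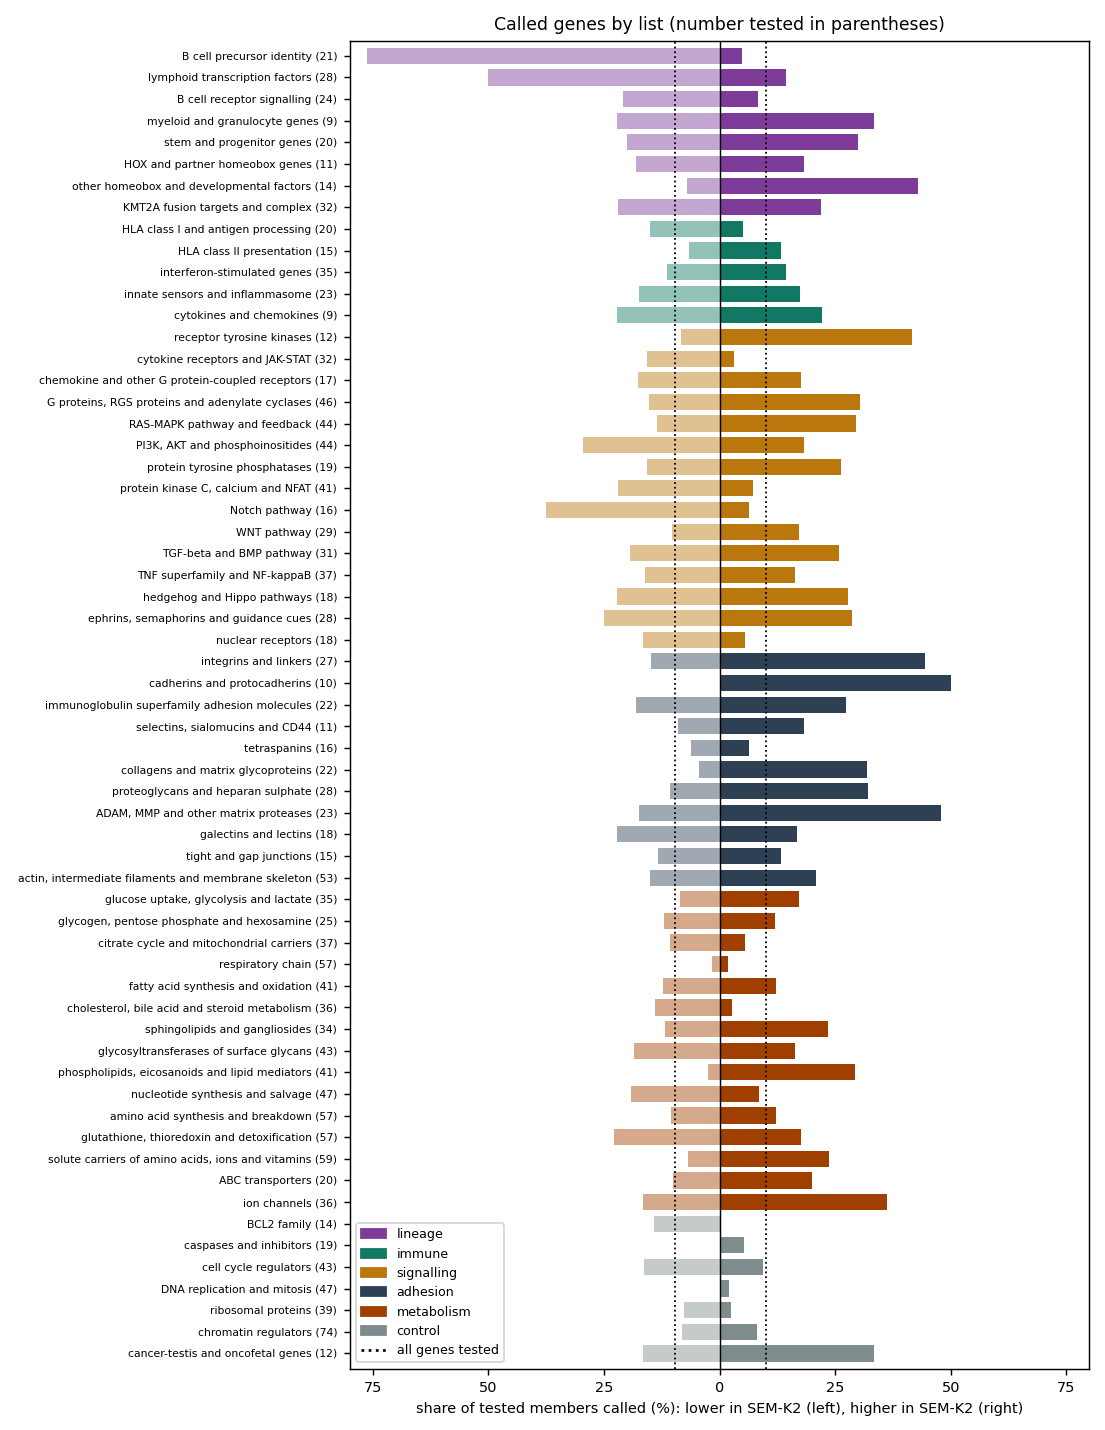
Share of each list's tested members called lower (left) or higher (right) in SEM-K2, in percent, coloured by class, for the lists reported here with at least 9 members tested, with dotted lines at the shares over all genes (9.6% lower and 10% higher). B cell precursor genes extend furthest to the left, with 16 of 21 members lower. The lists were chosen with earlier results of these data known.

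Of 21 B cell precursor genes, 16 were lower in SEM-K2 and 1, the surface antigen gene CD52, was higher, with a median difference of -2.60. CD52 was not called without SEM-K2 vehicle replicate 1 (adjusted p = 0.0638) or without RS4:11 vehicle replicate 2 (adjusted p = 0.068). RAG1 had 2.82 and 2.66 in SEM-K2 and 9.73 and 8.90 in RS4:11, at least 39.8-fold lower (-6.57 ± 0.32, adjusted p = 4.62e-07). RAG2 had 5.07 and 5.08 in SEM-K2 and 9.43 and 8.40 in RS4:11. DNTT, the terminal transferase that adds bases at V(D)J joints, had 3.68 and 3.66 in SEM-K2 and 9.75 and 7.85 in RS4:11, at least 27.8-fold lower (adjusted p = 0.000985). Neither RAG gene nor DNTT had a SEM-K2 array near an RS4:11 array. The least difference among their probe sets was -0.74 for RAG1 and -0.20 for DNTT.

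Transcripts of the pre-B receptor genes VPREB1, IGLL1 and CD79B were lower in SEM-K2 but above the floor. VPREB1 had 10.06 and 9.29 in SEM-K2 and 13 and 12.65 in RS4:11 (-3.15 ± 0.34, adjusted p = 0.000132). IGLL1, its partner in the surrogate light chain, had 12.09 and 10.81 in SEM-K2 and 14.27 and 13.83 in RS4:11. CD79B, a signal chain of the receptor, had 7.44 and 6.13 in SEM-K2 and 9.91 and 9.45 in RS4:11, while its partner CD79A differed by -0.89 ± 0.34, which did not pass (adjusted p = 0.105). BLNK, the linker behind the receptor, was below the floor in SEM-K2 at 2.59 and 2.63, against 7.60 and 6.31 in RS4:11. CD24, with 6.57 and 6.36 in SEM-K2 and 13.31 and 13.08 in RS4:11, and the ectoenzyme CD38, with 2.43 and 3.87 in SEM-K2 and 9.23 and 9.65 in RS4:11, were lower as well. The tetraspanin CD9 was 8.04-fold lower (-3.01 ± 0.34).

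The factors that define the lineage did not pass the test. PAX5 had 12.82 and 12.98 in SEM-K2 and 12.57 and 12.66 in RS4:11 (adjusted p = 0.203), and EBF1 had 12.51 and 12.66 in SEM-K2 and 12.90 and 12.61 in RS4:11. CD22, a B cell inhibitory receptor, had 9.80 and 9.54 in SEM-K2 and 9.47 and 9.47 in RS4:11. TCF3, which encodes the E proteins of the B lineage, was lower, with 11.57 and 11.05 in SEM-K2 and 12.85 and 12.55 in RS4:11. In such bulk RNA, fewer cells with a transcript and less of it per cell cannot be told apart. CD34 and MME (CD10) were below the floor on too many arrays to be tested, and HOXA9 was not analysed here.

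Of the members that fell together, the promoters of DNTT, VPREB1 and IGLL1 are shown. They were picked because their windows hold motifs that the B lineage factors read. Each run is the 250 bases before the start of the gene on its own strand, from RefSeq on GRCh38.p14. Capitals mark CAGGTG (an E-box, or its complement CACCTG) and CCCNNGGG (a palindrome of the kind EBF1 binds), searched on both strands. They are DNTT at chr10:96304184-96304433 on the plus strand, VPREB1 at chr22:22244536-22244785 on the plus strand and IGLL1 at chr22:23580291-23580540 on the minus strand.
DNTT: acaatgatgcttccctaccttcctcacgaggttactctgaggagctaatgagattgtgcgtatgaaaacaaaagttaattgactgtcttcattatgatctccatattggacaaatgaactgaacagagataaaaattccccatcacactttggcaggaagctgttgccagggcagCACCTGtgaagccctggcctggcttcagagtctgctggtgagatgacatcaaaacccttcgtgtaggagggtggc
VPREB1: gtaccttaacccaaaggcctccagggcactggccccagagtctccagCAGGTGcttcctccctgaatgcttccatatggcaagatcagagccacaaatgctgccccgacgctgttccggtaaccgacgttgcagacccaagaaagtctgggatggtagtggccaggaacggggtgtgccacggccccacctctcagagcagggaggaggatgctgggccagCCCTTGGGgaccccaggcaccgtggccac
IGLL1: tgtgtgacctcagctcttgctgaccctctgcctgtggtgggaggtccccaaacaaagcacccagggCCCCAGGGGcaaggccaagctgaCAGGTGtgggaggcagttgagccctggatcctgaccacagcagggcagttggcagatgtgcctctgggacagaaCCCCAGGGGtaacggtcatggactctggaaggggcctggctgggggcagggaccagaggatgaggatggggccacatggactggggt
In DNTT the single E-box begins 75 bases before the start, and no CCCNNGGG is in the window. VPREB1 holds 1 motif of each kind, and IGLL1 holds 1 E-box and 4 matches of CCCNNGGG in 2 overlapping pairs. Of the 16 lower members 13 had a promoter in the table, with 18 windows in all, since CD9 and CD24 have several. CAGGTG was in 8 of these 18 windows, and in 17.5% of all 35116 promoter windows. CCCNNGGG was in 3 of the 18, and in 17.1% of all windows. The windows of RAG1, RAG2, IL7R, CD72 and TCF3 held neither motif. A match describes the letters of the window only.

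Of 28 lymphoid transcription factors, 14 were lower and 4 higher in SEM-K2, with a median difference of -0.74. FOXO1, which drives RAG expression in B cell precursors, was 10.1-fold lower (-3.33 ± 0.28, adjusted p = 2.44e-05). Its values were 5.14 and 5.95 in SEM-K2 and 9.14 and 8.62 in RS4:11. Whether it bears on the RAG genes here was not tested. FOXO1 lies on chromosome 13, where 49.2% of the genes tested were lower in SEM-K2. BACH2, a transcriptional repressor that acts in B lineage cells, was 8.36-fold lower (-3.06 ± 0.17), and SOX4 was 4.29-fold lower (-2.10 ± 0.22). ID1, an inhibitor of E proteins, went the other way, with 8.35 and 7.80 in SEM-K2 and 2.46 and 2.90 in RS4:11, at least 16.9-fold higher (adjusted p = 4.21e-05). ZEB1, a zinc finger repressor, was at least 5.77-fold higher, and IRF8, a factor of B and myeloid cells, was 5.04-fold higher, at 10.29 and 10.33 in SEM-K2 and 8.10 and 7.86 in RS4:11.

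B cell receptor signalling genes were less one-sided, with 2 of 24 higher and 5 lower in SEM-K2. The 2 higher ones were BANK1, at 10.46 and 10.76 in SEM-K2 and 4.11 and 3.81 in RS4:11, and MS4A1, which encodes CD20 of more mature B cells, at 6.46 and 5.79 in SEM-K2 and 2.69 and 2.85 in RS4:11. In RS4:11 the mean of both lay below the floor. FCRLA (2.82-fold), the kinase LYN (2.59-fold) and the adaptor GAB1 (2.42-fold) were lower in SEM-K2.

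**Figure D4:**
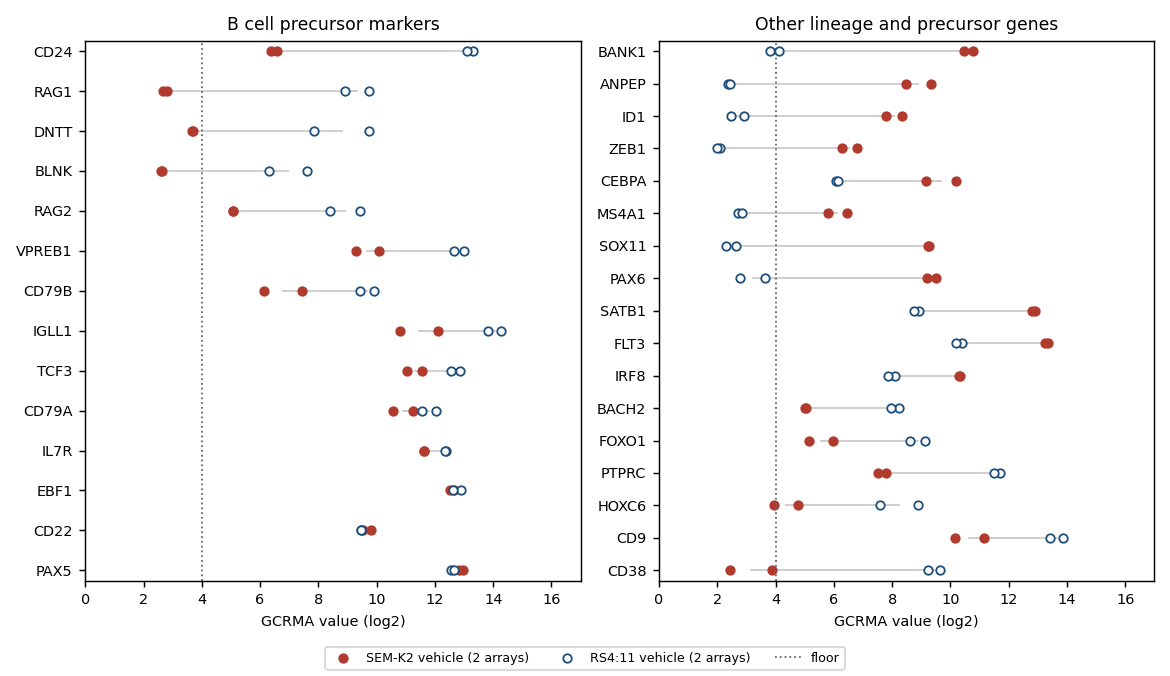
GCRMA value (log2, horizontal) per vehicle array for the 14 B cell precursor markers measured (left) and for other lineage genes named in the text (right), filled for SEM-K2, open for RS4:11, with a dotted line at the floor of 4. CD24, RAG1, DNTT, BLNK and RAG2 are the markers with the widest gaps, and PAX5, EBF1 and CD22 overlap or nearly touch.

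Only 9 of 33 myeloid genes on the array passed the filter, and 3 of these were higher and 2 lower in SEM-K2. CEBPA, the factor of granulocyte precursors, had 10.20 and 9.15 in SEM-K2 and 6.07 and 6.13 in RS4:11, 11.9-fold higher (3.57 ± 0.42, adjusted p = 0.000239). ANPEP, the surface peptidase CD13, had 9.32 and 8.47 in SEM-K2 and 2.37 and 2.43 in RS4:11, at least 29.8-fold higher (adjusted p = 1.21e-06). The Fc receptor FCGR2A was 3.92-fold lower and the cytokine receptor chain CSF2RB 2.90-fold lower. Granule genes such as MPO, ELANE, AZU1 and PRTN3 lay between 2.05 and 2.38 on every vehicle array of both lines.

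Stem and progenitor genes gave 6 higher and 4 lower of 20. ANGPT1, a ligand of the receptor TIE2, had 8.98 and 9.16 in SEM-K2 and 5.45 and 4.84 in RS4:11, 15.2-fold higher (3.92 ± 0.32). The homeodomain cofactor HOPX was 12.9-fold higher (3.69 ± 0.65, adjusted p = 0.00316). FLT3, a receptor tyrosine kinase of early progenitors, had 13.24 and 13.36 in SEM-K2 and 10.41 and 10.20 in RS4:11, 8-fold higher (3.00 ± 0.17, adjusted p = 1.37e-06). The RNA-binding proteins MSI2 (2.48-fold) and LIN28B (2.58-fold) were lower in SEM-K2. LIN28B was not called without SEM-K2 vehicle replicate 2 (adjusted p = 0.0774) or without RS4:11 vehicle replicate 2 (adjusted p = 0.0636). The count of lower stem and progenitor genes was 2 without either replicate 2 of the vehicle arrays.

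Of the developmental factors outside the HOX clusters, 6 of 14 were higher and 1 lower in SEM-K2. SOX11 had 9.22 and 9.27 in SEM-K2 and 2.31 and 2.63 in RS4:11, at least 37.9-fold higher (6.77 ± 0.15, adjusted p = 4.13e-09). PAX6, an eye and brain factor, had 9.49 and 9.20 in SEM-K2 and 3.64 and 2.78 in RS4:11, at least 40.7-fold higher, and TFAP2A was at least 5.54-fold higher. Of the HOX and partner genes, 2 of 11 were higher and 2 lower. HOXC6 had 4.78 and 3.93 in SEM-K2 and 8.89 and 7.57 in RS4:11, 14.7-fold lower (-3.88 ± 0.57, adjusted p = 0.00106), and PBX3, a HOX cofactor, was 2.99-fold lower. The count of higher HOX and partner genes was 0 without RS4:11 vehicle replicate 2 and 1 without any of the other vehicle arrays or either SEM-K2 EC50 array. The 1 lower developmental factor was not called without RS4:11 vehicle replicate 1 or SEM-K2 vehicle replicate 2.

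Among KMT2A fusion targets and complex members, 7 of 32 were higher and 7 lower in SEM-K2. MEIS1, the target most often used to mark the fusion, had 10.76 and 10.62 in SEM-K2 and 10.77 and 10.94 in RS4:11 (adjusted p = 0.609). CCNA1, a cyclin of germ cells and leukaemia, was at least 8.97-fold higher in SEM-K2, and the G protein GNAQ was 3.69-fold higher. LAMP5, a membrane protein gene of the lysosomal family, was 5.58-fold lower, and NR3C1, the glucocorticoid receptor, was 3.12-fold lower, at 10.58 and 10.74 in SEM-K2 and 12.33 and 12.28 in RS4:11. The fusion partners KMT2A (-0.94 ± 0.25, adjusted p = 0.0252) and AFF1 (-0.91 ± 0.17, adjusted p = 0.0043) were lower in SEM-K2. The 11 probe sets of KMT2A ran from -1.90 to 0.71, and whether a probe set reads the fusion or the unfused allele was not determined. KMT2A was not called without SEM-K2 vehicle replicate 1 (adjusted p = 0.105), without SEM-K2 vehicle replicate 2 (adjusted p = 0.0797) or without RS4:11 vehicle replicate 2 (adjusted p = 0.158). The count of lower genes in this list was 3 without SEM-K2 vehicle replicate 1 or without RS4:11 vehicle replicate 2, and 4 without SEM-K2 vehicle replicate 2.

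Cytokines and chemokines had 2 of 9 genes higher and 2 lower. The inflammatory cytokine IL1B had 2.60 and 2.92 in SEM-K2 and 8.44 and 8.41 in RS4:11, at least 21.5-fold lower (-5.67 ± 0.21, adjusted p = 7.59e-08). TGFB1, an immune-suppressing cytokine, had 9.29 and 9.03 in SEM-K2 and 5.54 and 4.98 in RS4:11, 14.9-fold higher. The growth factor MDK was 7.79-fold higher. Of 23 innate sensors 4 were higher and 4 lower. The kinase IRAK2 was at least 16.3-fold higher, while the RNA sensor TLR7, with 2.53 and 2.53 in SEM-K2 and 6.15 and 5.99 in RS4:11, was at least 4.19-fold lower, and the receptor CD180 at least 5.14-fold lower. Complement and Fc receptor genes had 4 of 7 members lower and none higher, among them CD59, which blocks the membrane attack complex (3.25-fold). That count was 2 without RS4:11 vehicle replicate 1.

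Of 20 class I antigen presentation genes, 1 was higher and 3 lower (20% called against 19.6% over all genes). The 3 became 1 without SEM-K2 vehicle replicate 2, either RS4:11 vehicle array or either RS4:11 3xEC50 array, and 5 without SEM-K2 vehicle replicate 1. The peptide trimmer ERAP2 was 5.57-fold higher (2.48 ± 0.27), at 8.46 and 8.71 in SEM-K2 and 6.50 and 5.70 in RS4:11, and NLRC5, the class I transactivator, was 2.38-fold lower. Of 15 class II genes, 2 were higher and 1 lower (20% called), the protease CTSH at least 5.89-fold. The 2 higher became 0 without SEM-K2 vehicle replicate 1, RS4:11 vehicle replicate 2, either SEM-K2 EC50 array or either RS4:11 3xEC50 array, and 1 without SEM-K2 vehicle replicate 2 or either RS4:11 EC50 array. The 1 lower became 3 without SEM-K2 vehicle replicate 1 and 2 without either SEM-K2 3xEC50 array. Interferon-stimulated genes had 5 of 35 higher and 4 lower (25.7% called). The antiviral OAS2 was 5.13-fold lower (-2.36 ± 0.20) and the deconjugase USP18 at least 4.37-fold higher. The 5 became 2 without SEM-K2 vehicle replicate 1 or RS4:11 vehicle replicate 2 and 3 without RS4:11 vehicle replicate 1. The 4 became 2 without RS4:11 vehicle replicate 1 or SEM-K2 vehicle replicate 2.

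Of 12 receptor tyrosine kinases, 5 were higher and 1 lower in SEM-K2. Besides FLT3, the fibroblast growth factor receptor FGFR1 had 8.69 and 7.82 in SEM-K2 and 4.48 and 4.97 in RS4:11, 11.6-fold higher (3.53 ± 0.44, adjusted p = 0.000398). The count of 5 became 3 without SEM-K2 vehicle replicate 2 or without the genes of chromosomes 8 and 13, and 2 without any of the other vehicle arrays. The 1 lower became 2 without either RS4:11 EC50 array, and 0 without any 1 of 5 arrays, both SEM-K2 vehicle arrays, RS4:11 vehicle replicate 2 and both SEM-K2 EC50 arrays. Cytokine receptor and JAK-STAT genes had 1 of 32 higher and 5 lower (18.8% called, with 3 lower without RS4:11 vehicle replicate 1). The 1 higher became 0 without replicate 1 of either line's vehicle arrays, 2 without either SEM-K2 EC50 array and 3 without SEM-K2 vehicle replicate 2. SOCS2, a feedback inhibitor of JAK-STAT signalling, had 3.31 and 3.31 in SEM-K2 and 10.02 and 8.37 in RS4:11, at least 36.6-fold lower (-5.88 ± 0.67, adjusted p = 0.000211). The kinase JAK2 was 3.68-fold lower.

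RAS-MAPK genes had 13 of 44 higher and 6 lower. DUSP6, the ERK phosphatase, had 9.27 and 8.32 in SEM-K2 and 5.76 and 5.03 in RS4:11, 10.6-fold higher (3.40 ± 0.45, adjusted p = 0.000524). SPRY4, a Sprouty inhibitor, was at least 4.10-fold higher and SPRED2 was 3.48-fold higher. The exchange factor RASGRP2 was 6.61-fold lower (-2.73 ± 0.20), and among the p38 kinases MAPK13 was at least 5.31-fold and MAPK12 2.98-fold lower. The count of higher members became 6 without SEM-K2 vehicle replicate 1 and 7 without RS4:11 vehicle replicate 2.

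In the phosphoinositide pathway, 8 of 44 genes were higher and 13 lower. PLCB1, which splits PIP2 behind G protein-coupled receptors, had 3.40 and 3.50 in SEM-K2 and 10.25 and 10.06 in RS4:11. DGKA, the kinase that removes diacylglycerol, was at least 12.1-fold lower. PIK3R3, a regulatory subunit of PI3K, had 9.02 and 8.94 in SEM-K2 and 4.83 and 5.36 in RS4:11, 14.8-fold higher (3.89 ± 0.25), and the kinase SGK1 was 7.96-fold higher. The 8 higher genes became 5 without SEM-K2 vehicle replicate 1 and 4 without RS4:11 vehicle replicate 2. Protein kinase C, calcium and NFAT genes leaned lower, with 3 of 41 higher and 9 lower, among the lower ones the annexin ANXA6 (6.45-fold) and the calcineurin inhibitor RCAN1 (3.77-fold). The 3 higher became 5 without RS4:11 vehicle replicate 1 and 6 without SEM-K2 vehicle replicate 2.

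G proteins and their regulators had 14 of 46 higher and 7 lower. RGS2, which shortens Gq signals, had 12.27 and 12.24 in SEM-K2 and 8.05 and 7.42 in RS4:11, 23.0-fold higher (4.52 ± 0.23, adjusted p = 7.02e-07). RGS13 was at least 10.5-fold and GNAI1 7.32-fold higher. PDE4B, a phosphodiesterase that breaks down cAMP, was at least 9.11-fold lower. Of 17 G protein-coupled receptors, 3 were higher and 3 lower (5 lower without SEM-K2 vehicle replicate 1). F2R, the thrombin receptor PAR1, was at least 11.8-fold lower and GPR18 9.53-fold lower. The 3 higher became 1 without chromosomes 8 and 13, which hold FZD3 (4.74-fold higher) and LPAR6 (3.86-fold higher).

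Of 19 tyrosine phosphatases, 5 were higher and 3 lower. PTPRC, which encodes CD45 of all white blood cells, had 7.80 and 7.51 in SEM-K2 and 11.69 and 11.51 in RS4:11, 15.4-fold lower (-3.94 ± 0.23, adjusted p = 2.11e-06). The receptor phosphatase PTPRK was at least 11.6-fold higher and PTPRG at least 8.97-fold.

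Notch genes had 1 of 16 higher and 6 lower, and these counts were the same with any 1 array left out. MFNG, which modifies Notch receptors, had 3.35 and 2.55 in SEM-K2 and 8.03 and 8.07 in RS4:11, at least 16.5-fold lower (-5.10 ± 0.37, adjusted p = 8.92e-06). HES6 was 11.9-fold lower and DTX4 5.70-fold lower. The ligand gene DLL1 was the one higher member, with 7.50 and 6.39 in SEM-K2 and 2.42 and 2.42 in RS4:11. TGF-beta and BMP genes had 8 of 31 higher and 6 lower. ACVR2B, an activin receptor, was at least 23.5-fold higher (4.77 ± 0.15), BMPR2 was 4.10-fold higher, the signal carrier SMAD3 was at least 6.08-fold lower and the decoy receptor BAMBI at least 5.61-fold. The count of 6 became 3 without RS4:11 vehicle replicate 1. WNT genes had 5 of 29 higher and 3 lower, with CTNNB1, beta-catenin, 1.97-fold higher (0.98 ± 0.19). The 5 became 3 without any 1 of 6 arrays, SEM-K2 vehicle replicate 1 and RS4:11 vehicle replicate 2 among them, and the other 4 held obatoclax. The 3 lower became 0 without SEM-K2 vehicle replicate 2 or RS4:11 vehicle replicate 1 and 1 without either RS4:11 EC50 array.

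In the Hippo and hedgehog lists, 5 of 18 genes were higher and 4 lower. Of the transcription factors of the Hippo pathway, TEAD4 was at least 14.9-fold and TEAD1 at least 5.47-fold higher, while CCN2, a TEAD target in other cells, was 128-fold lower. LATS2, a Hippo kinase, was 4.26-fold lower, and the count of 4 became 2 without chromosomes 8 and 13. TNF superfamily and NF-kappaB genes had 6 of 37 higher and 6 lower. The death receptor TNFRSF10B was 7.53-fold higher (2.91 ± 0.22) and TNFRSF1B 7.29-fold higher, while CD70 was 5.43-fold and TNFSF4 at least 82.1-fold lower. The 6 higher became 3 without chromosomes 8 and 13. Guidance genes had 8 of 28 higher and 7 lower. SEMA3A, a repulsive ligand, was at least 25.8-fold higher (5.26 ± 0.34), at 8.59 and 8.78 in SEM-K2 and 3.44 and 3.42 in RS4:11, and EFNB2, an ephrin, was 6.11-fold lower.

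Of 27 integrins and linkers, 12 were higher and 4 lower. ITGAL, the alpha chain of the leukocyte integrin LFA-1, had 9.65 and 9.52 in SEM-K2 and 5.17 and 4.64 in RS4:11, 25.6-fold higher (4.68 ± 0.37, adjusted p = 1.53e-05). ITGB7, a chain of the gut-homing integrin, was 18.1-fold higher (4.18 ± 0.38), and ITGA2, a chain of a collagen receptor, had 7.71 and 7.78 in SEM-K2 and 2.36 and 2.37 in RS4:11. Without RS4:11 vehicle replicate 2 the 12 became 7. Cadherins had 5 of 10 tested higher and none lower, and 38 of the 48 on the array did not pass the filter. DSG2, a desmosomal cadherin, was at least 41.2-fold higher (6.70 ± 0.27, adjusted p = 1.27e-07), and CDH2, N-cadherin, at least 14.8-fold. The 5 became 3 without SEM-K2 vehicle replicate 1 or RS4:11 vehicle replicate 2.

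Of 22 immunoglobulin-type adhesion molecules tested, 6 were higher and 4 lower, and 43 of the 65 on the array did not pass the filter. IGSF10 was at least 16.0-fold higher, NECTIN3 at least 9.98-fold and PECAM1 (CD31) at least 6.04-fold. ICAM2, a ligand of LFA-1, was 2.34-fold lower. Outside this list, the adhesion G protein-coupled receptor ADGRL3, a latrophilin, had 9.39 and 9.26 in SEM-K2 and 2.71 and 2.70 in RS4:11, at least 40.0-fold higher (6.62 ± 0.15). Of 16 tetraspanins, 1 was higher and 1, CD9, lower (12.5% called). The higher count was 0 without SEM-K2 vehicle replicate 1 or RS4:11 vehicle replicate 2 and 2 without SEM-K2 vehicle replicate 2.

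Collagens and matrix glycoproteins had 7 of 22 tested higher and 1 lower, and 47 of the 69 on the array did not pass the filter. FBN2, a fibrillin, had 8.96 and 9.04 in SEM-K2 and 2.86 and 3.85 in RS4:11, at least 32.1-fold higher (5.65 ± 0.31), and EDIL3 was at least 6.01-fold higher. The collagen COL5A1 was the lower member, at least 3.32-fold, and 2 were lower without SEM-K2 vehicle replicate 1 or either RS4:11 EC50 array. Heparan sulphate and proteoglycan genes had 9 of 28 higher and 3 lower, with the sulphotransferase HS6ST2 at least 36.7-fold higher (6.23 ± 0.26) and the syndecan SDC2 at least 4.44-fold. The 9 became 5 without SEM-K2 vehicle replicate 1. The 3 became 1 without replicate 2 of either line's vehicle arrays and 5 without SEM-K2 vehicle replicate 1. Matrix proteases and inhibitors had 11 of 23 higher and 4 lower (7 higher without RS4:11 vehicle replicate 2). SERPINE2, an inhibitor of thrombin, was 13.2-fold higher, and TIMP2, an inhibitor of matrix metalloproteases, had 5.63 and 3.88 in SEM-K2 and 10.36 and 9.60 in RS4:11, 37.4-fold lower (-5.23 ± 0.54, adjusted p = 0.000112).

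Lectins had 3 of 18 higher and 4 lower. LGALS1, galectin-1, had 13.83 and 13.02 in SEM-K2 and 10.47 and 9.91 in RS4:11, 9.43-fold higher (3.24 ± 0.37), while LGALS8 was at least 9.03-fold lower. Of 53 cytoskeletal genes, 11 were higher and 8 lower. The motor protein MYO6 was at least 19.0-fold higher, STMN3, a microtubule destabiliser, was at least 26.0-fold lower and the myosin MYO18B at least 9.83-fold. The count of 8 became 5 without either RS4:11 vehicle array and 4 without SEM-K2 vehicle replicate 2.

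Of 57 respiratory chain genes, 1 was higher and 1 lower (3.51% called against 19.6% over all genes, median difference -0.08), and the lower one was not called without either RS4:11 vehicle array. Of 37 genes of the citrate cycle and mitochondrial carriers, 2 were higher and 4 lower. The 2 became 1 without replicate 1 of the SEM-K2 vehicle arrays or either RS4:11 vehicle array, and the 4 fell to between 0 and 2 without any 1 vehicle array, either SEM-K2 EC50 array, either RS4:11 3xEC50 array or the genes of chromosomes 8 and 13, with 0 without SEM-K2 vehicle replicate 2. Of 35 genes of glucose uptake and glycolysis, 6 were higher and 3 lower (25.7% called). The fructose carrier SLC2A5 had 4.53 and 3.64 in SEM-K2 and 7.63 and 7.26 in RS4:11, 10.3-fold lower (-3.36 ± 0.31), the muscle phosphofructokinase PFKM was 1.86-fold lower, and the monocarboxylate carrier SLC16A7 was 2.80-fold higher. Outside this list, PYGL, which breaks down glycogen, was at least 5.10-fold higher.

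Amino acid synthesis and breakdown had 7 of 57 genes higher and 6 lower (22.8% called). ASS1, which makes argininosuccinate on the way to arginine, had 2.66 and 2.35 in SEM-K2 and 10.62 and 9.52 in RS4:11 (-7.56 ± 0.42, adjusted p = 1.25e-06). Outside this list, SLC7A2, a carrier of arginine and lysine, had 7.77 and 8.58 in SEM-K2 and 1.81 and 2.17 in RS4:11, at least 18.1-fold higher (adjusted p = 3.87e-06). OAT, ornithine aminotransferase, was at least 5.56-fold higher. ASNS, asparagine synthetase, had 9.34 and 9.37 in SEM-K2 and 6.91 and 7.28 in RS4:11, 4.80-fold higher (2.26 ± 0.24, adjusted p = 0.000123). Solute carriers as a list had 14 of 59 higher and 4 lower, among them the thiamine carrier SLC19A2 (at least 11.6-fold higher) and the carnitine and organic cation carrier SLC22A16 (9.95-fold lower). The 14 became 7 without RS4:11 vehicle replicate 1 and 8 without SEM-K2 vehicle replicate 1.

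Nucleotide metabolism had 4 of 47 genes higher and 9 lower. ADA, adenosine deaminase, had 9.45 and 9.03 in SEM-K2 and 12.10 and 11.95 in RS4:11, 6.86-fold lower (-2.78 ± 0.17, adjusted p = 2.55e-06). The ectoenzyme NT5E (CD73), which produces adenosine outside the cell, was 6.85-fold higher, at 7.54 and 6.98 in SEM-K2 and 4.35 and 4.61 in RS4:11. The nucleoside carrier SLC29A2 was at least 7.87-fold lower and the CTP synthase CTPS2 at least 8.27-fold. The 9 became 5 without RS4:11 vehicle replicate 2, and the 4 became 2 without replicate 1 of either line's vehicle arrays.

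Phospholipid and eicosanoid genes had 12 of 41 higher and 1 lower, with a median difference of 0.46. ALOX5AP, which activates 5-lipoxygenase for leukotriene synthesis, had 9 and 9.22 in SEM-K2 and 5.11 and 4.39 in RS4:11, 20.5-fold higher (4.36 ± 0.54, adjusted p = 0.000373), and ENPP4 was at least 8.61-fold higher. The 12 became 7 without SEM-K2 vehicle replicate 1 and 6 without RS4:11 vehicle replicate 2. The 1 lower became 0 without replicate 2 of either line's vehicle arrays and 2 without either SEM-K2 3xEC50 array. Sphingolipid genes had 8 of 34 higher and 4 lower. SPTLC2, a subunit of the first enzyme of sphingolipid synthesis, had 11.23 and 11.23 in SEM-K2 and 7.32 and 7.71 in RS4:11, 13.1-fold higher (3.71 ± 0.25), and UGT8, which makes galactosylceramide, was at least 11.4-fold higher. The 8 became 5 without SEM-K2 vehicle replicate 1, SEM-K2 vehicle replicate 2 or RS4:11 vehicle replicate 2, and the 4 became 2 without RS4:11 vehicle replicate 1. Cholesterol genes had 1 of 36 higher and 5 lower (16.7% called), with VLDLR 3.21-fold and DHCR7 2.52-fold lower. The 1 higher was not called without SEM-K2 vehicle replicate 1 or either RS4:11 vehicle array. Of 41 fatty acid genes 5 were higher and 5 lower (24.4% called), ELOVL6, an elongase, 4.35-fold higher. Those 5 lower ones became 3 without RS4:11 vehicle replicate 1 or SEM-K2 vehicle replicate 2 and 2 without RS4:11 vehicle replicate 2.

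Redox and detoxification genes had 10 of 57 higher and 13 lower (6 higher without SEM-K2 vehicle replicate 1 or RS4:11 vehicle replicate 2). PRDX2, a peroxiredoxin, had 7.50 and 7.42 in SEM-K2 and 11.64 and 11.39 in RS4:11, 16.6-fold lower (-4.06 ± 0.26, adjusted p = 3.58e-06). The peroxidase GPX7 was 18.7-fold lower and the metallothionein MT1E 9.39-fold lower. The cytochrome CYP4V2 was at least 5.79-fold higher. Ion channels had 13 of 36 higher and 6 lower, with the potassium channel KCNMA1 at least 8.43-fold higher and the ATP receptor P2RX5 at least 6.73-fold lower. The 13 became 7 without either RS4:11 vehicle array.

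Of 43 cell cycle regulators, 4 were higher and 7 lower in SEM-K2 (25.6% called). CDKN2A, described above, was among the higher ones with CCNA1 and the kinase CDK14 (4.76-fold), and the cyclin CCNE2 was 3.94-fold lower. The 7 became 3 without RS4:11 vehicle replicate 2 and 4 without either RS4:11 3xEC50 array or either SEM-K2 EC50 array. Of 47 genes of DNA replication and mitosis, 1 was higher (2.13% called), and none of them was higher without SEM-K2 vehicle replicate 1 or RS4:11 vehicle replicate 2. Of 39 ribosomal proteins, 1 was higher and 3 lower. Of 19 caspases and inhibitors 1 was higher, which became 0 without SEM-K2 vehicle replicate 1 and 2 without SEM-K2 vehicle replicate 2, RS4:11 vehicle replicate 1 or either SEM-K2 3xEC50 array. Of 74 chromatin regulators 12 were called. The genome organiser SATB1 was 16.3-fold higher (4.02 ± 0.14), at 12.80 and 12.92 in SEM-K2 and 8.93 and 8.74 in RS4:11. None of 14 BCL2 family genes was higher and 2 were lower, with BIK, a proapoptotic member, 6.22-fold lower (-2.64 ± 0.44), and 1 was lower without SEM-K2 vehicle replicate 2 or either RS4:11 vehicle array. Among the targets of obatoclax, BCL2, MCL1 and BCL2L1 did not pass the test. BCL2 differed by -0.25 ± 0.13 (adjusted p = 0.233), MCL1 by 0.43 ± 0.17 (adjusted p = 0.117) and BCL2L1 by -0.12 ± 0.72 (adjusted p = 0.942). Values of other antiapoptotic members are not given here. RPL39L, a ribosomal protein gene mainly of testis and tumours, was the higher one among the ribosomal genes, at 7.89 and 7.71 in SEM-K2 and 2.42 and 2.40 in RS4:11, at least 13.9-fold higher.

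The called genes were not spread evenly over the chromosomes. Gene order was taken from RefSeq on GRCh38.p14, and this view was added after the values were seen. On chromosome 13, 95 of 193 genes tested (49.2%) were lower in SEM-K2, against 9.6% over all genes, and 22 were higher, with a median difference of -0.82. The median over these genes was -0.75 and -0.82 for the 2 SEM-K2 arrays against the RS4:11 mean, and 0.85 and 0.67 for the 2 RS4:11 arrays against the SEM-K2 mean. Chromosome 8 divided at 1 point in gene order, between FNTA and HGSNAT. Before it, from ZNF596 to FNTA, 63 of 128 genes (49.2%) were higher and 4 lower, with a median of 0.86. Beyond it, to C8orf33, 97 of 253 genes (38.3%) were lower and 21 higher, with a median of -0.52. Genes of all other chromosomes had a median of 0.02. The obatoclax arrays gave medians of -0.74 on chromosome 13 and of 0.90 and -0.48 on the 2 stretches of chromosome 8, against 0.06 elsewhere.

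A shorter stretch of chromosome 7, from ZNF138 to DMTF1-AS1, had a running median (over 51 neighbouring genes above the floor in both lines) down to -0.62, with 16 of its 70 genes lower and 5 higher. On no other autosome and not on the X chromosome did the running median leave the range from -0.35 to 0.28. Its lowest value on chromosome 22, -0.35, lay at VPREB3, in the neighbourhood of VPREB1 and IGLL1. Without the genes of chromosomes 8 and 13 the count of called genes was 1772. DNA was not assayed in this series.

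**Figure D5:**
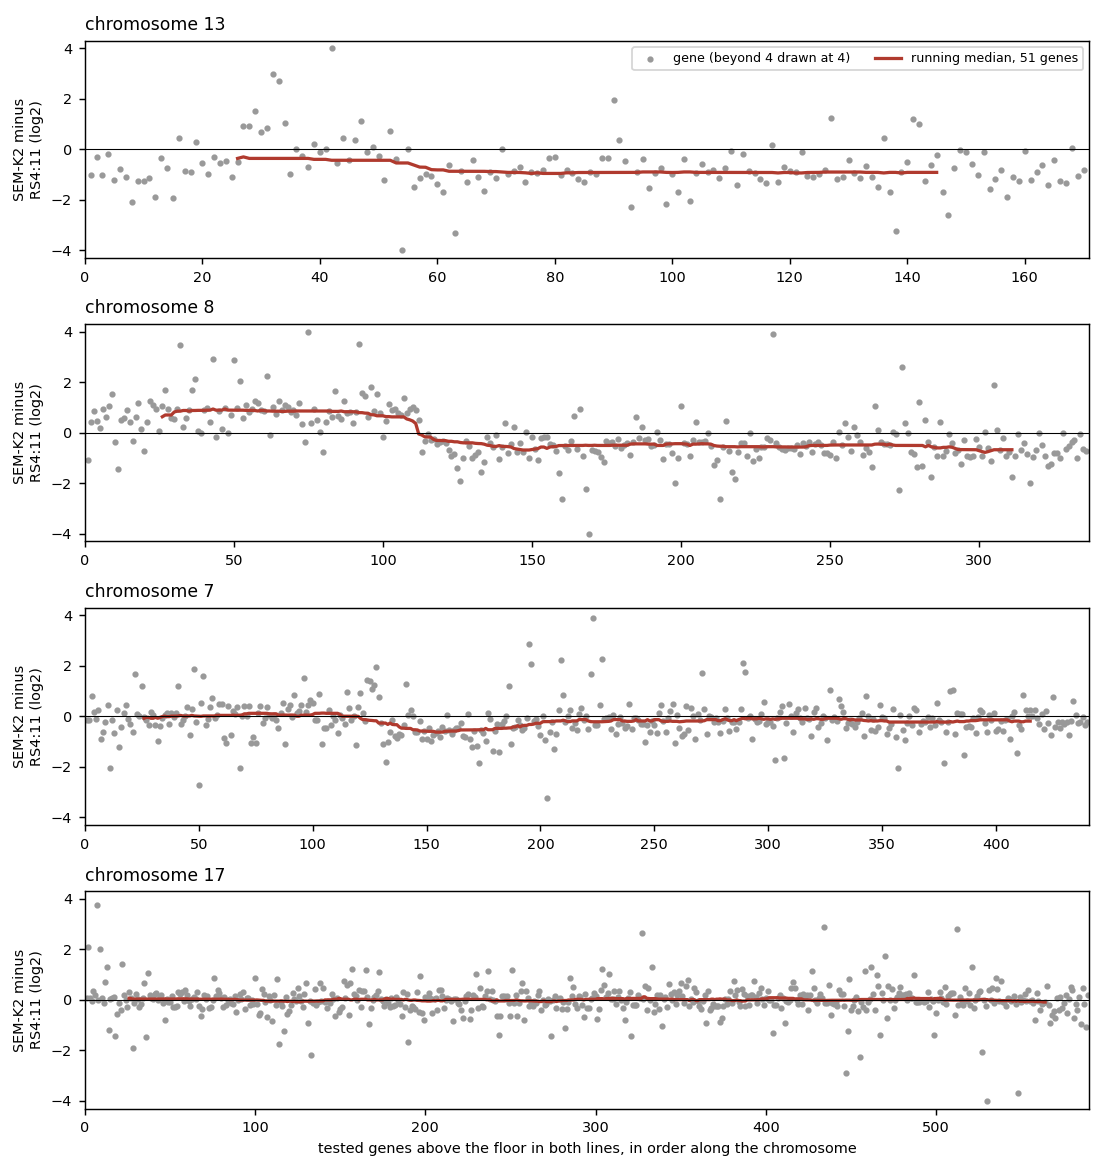
Difference between the lines (SEM-K2 minus RS4:11, log2, vertical, points beyond 4 drawn at 4) of genes above the floor in both lines, in order along chromosomes 13, 8, 7 and 17, with the running median over 51 genes in red. The red line stays below 0 along chromosome 13, crosses 0 once on chromosome 8, dips on chromosome 7 and stays near 0 on chromosome 17.

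Runs of at least 5 neighbouring tested genes that were all called in 1 direction numbered 16 and held 92 genes. Of these runs, 8 lay on chromosome 13 and 5 on chromosome 8. Of the rest, 1 on chromosome 16 held the metallothionein genes MT2A to MT1X, near-identical copies whose probe sets may share signal, all lower in SEM-K2, and 1 on chromosome 19 held 6 genes from ZSCAN5A to ZNF805, all higher, of which SMIM17 is not a zinc finger gene. In each of the 16 runs every gene was called in the same direction in the obatoclax arrays.

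The run with the largest differences lay on chromosome 9 and held FOCAD, HACD4, KLHL9, MTAP and CDKN2A, which follow each other among the genes tested. All 5 were below the floor in RS4:11, and the run's genes were named after their values were seen. MTAP, the enzyme that salvages adenine from methylthioadenosine, had 8.67 and 8.74 in SEM-K2 and 2.08 and 2.07 in RS4:11, at least 26.1-fold higher (6.63 ± 0.20, adjusted p = 1.81e-08). KLHL9, an adaptor of a ubiquitin ligase, had 9.85 and 9.57 in SEM-K2 and 3.16 and 3.14 in RS4:11, at least 52.3-fold higher. HACD4, a dehydratase of fatty acid elongation, had 8.77 and 7.50 in SEM-K2 and 2.05 and 2.03 in RS4:11. FOCAD had 6.80 and 6.76 in SEM-K2 and 2.24 and 2.25 in RS4:11. CDKN2A had 11.45 and 10.83 in SEM-K2 and 2.62 and 3.98 in RS4:11. The next genes on either side did not pass, ACER2 at -0.82 ± 0.36 (adjusted p = 0.163) and CAAP1 at 0.18 ± 0.22 (adjusted p = 0.677). In the 4 RS4:11 obatoclax arrays MTAP ran from 2.08 to 2.53 and KLHL9 from 3.15 to 3.33, while CDKN2A ran from 3.71 to 4.35. The representative probe set was the brightest one, and other probe sets of these genes differed by as little as -0.03 in HACD4 and KLHL9, 0.05 in MTAP, 0.33 in FOCAD and 0.56 in CDKN2A.

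The longest run, with 9 genes, lay on chromosome 13 against the direction of its neighbours, and it holds FLT3. In order it comprised WASF3, USP12, GTF3A, MTIF3, LNX2, POLR1D, FLT3, PAN3-AS1 and PAN3, all higher in SEM-K2. FLT3 differed by 3.00 ± 0.17 and PAN3-AS1, which lies next to it, by 2.71 ± 0.22, at 11.84 and 12.14 in SEM-K2 and 9.03 and 9.54 in RS4:11. PAN3, a subunit of a deadenylase, had 14.72 and 15.08 in SEM-K2 and 13.86 and 13.86 in RS4:11, and the mitochondrial initiation factor MTIF3 had 11.30 and 11.27 in SEM-K2 and 9.82 and 9.74 in RS4:11. GTF3A, USP12, POLR1D and LNX2 differed by 0.94, 0.93, 0.83 and 0.69. WASF3, an actin regulator, was below the floor in RS4:11 and at least 9.30-fold higher in SEM-K2. On the sides of the run, CDK8 had a difference of -0.50 ± 0.16 (adjusted p = 0.0623) and FLT1 one of -0.99 ± 0.34 (adjusted p = 0.0763).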

How the data were processed

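RNA of 12 cultures was hybridised to Affymetrix U133 Plus 2 arrays. The authors deposited 1 value per probe set and array, on the log2 scale as judged from the values (0.64 to 16.22), made with GCRMA per the submitters' processing notes, whose version is not given in the sources used here. Of 54675 probe sets, 41097 had 1 gene symbol in the platform annotation, 1801 several and 11777 none. Each gene was read from its brightest probe set (by the mean of 12 arrays), and 10561 genes above 4 on at least 2 arrays were tested. GCRMA pulls dim probe sets to a common low level, so a group mean under 4 was raised to 4 before a fold was taken, and that fold is written as at least N-fold. When a gene has several probe sets, the ones not chosen often lay near 0 difference. Among 326 named genes 244 had several, and in 3 of these probe sets differed by over 0.5 in opposite directions.

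Differences came from limma 3.58.1 in R 4.3.3 (lmFit and eBayes, 6 group means over 12 arrays, 6 residual and 3.27 prior degrees of freedom) with Benjamini-Hochberg adjustment. A second fit used the 8 obatoclax arrays only. The labels call the replicates biologic but do not say how the cultures were separated, so the spread behind each p-value is that between these arrays and may be technical, and 2 arrays a group limit the precision. Same-numbered arrays deviated together in all 15 pairs of groups (correlation 0.191 to 0.601). This pairing by replicate number, found from the data, was tried as a block only as an alternative. The main fit, which gave the calls, SEs and adjusted p-values of the Results, had no block. The scripts were tested on simulated data. Figures were drawn with matplotlib 3.10.9 in Python 3.11.15.

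Named genes were the 12 largest rises and 12 largest falls, up to 3 rises and 3 falls of each of 66 lists, and a fixed set of lineage, fusion and BCL2 family genes. B cell precursor markers and genes named by position are further exceptions, those by position chosen after their values were seen. The members and lists were chosen with earlier results of these data known. Gene order, chromosomes and promoters are from RefSeq on GRCh38.p14. Alternatives were other filters, scalings, probe set rules, blocks and array subsets, and leaving out each array. 1 list and 1 fixed gene are not reported here.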

Additional observations from a re-analysis of the deposited data

Results flagged for a closer look

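In 4 genes the difference between the lines itself differed between the obatoclax arrays and the vehicle arrays, tested across all genes as the line difference at a dose minus that in vehicle (limma interaction term, Benjamini-Hochberg). These genes were named after their values were seen. SEM-K2 3xEC50 replicate 2 had the highest 3' minus 5' probe set differences, 1.97 for ACTB against 0.87 to 1.23 on the other arrays and 0.61 for GAPDH against at most 0.30. Without it, in a refit chosen after seeing the data, the values at 3xEC50 were 4.04 for KANK1 (adjusted p = 0.00106), 3.81 for ENPP2 (adjusted p = 0.0669), 2.85 for CD1A (adjusted p = 0.0406) and -2.02 for DLX2 (adjusted p = 0.0406). KANK1 passed without any 1 array at both doses. ENPP2 passed without either SEM-K2 EC50 array or SEM-K2 3xEC50 replicate 1, and without any of the other 9 arrays it did not pass (adjusted p up to 0.214). CD1A did not pass without either RS4:11 vehicle or either RS4:11 3xEC50 array, nor DLX2 without these or either SEM-K2 vehicle array (adjusted p 0.0527 to 0.0986 for both genes). The number of genes that passed at 3xEC50 was 1 to 20 without 1 array, with 20 without SEM-K2 3xEC50 replicate 1, 2 without SEM-K2 vehicle replicate 2 and 1 without RS4:11 vehicle replicate 2 or either RS4:11 3xEC50 array. For KANK1, a regulator of the actin cytoskeleton, this value was 4.24 at 3xEC50 (adjusted p = 0.000258) and 3.92 at EC50 (adjusted p = 0.000528), and its vehicle values were 2.54 and 2.54 in SEM-K2 and 2.55 and 2.22 in RS4:11. For ENPP2, the enzyme autotaxin, it was 3.62 at 3xEC50 (adjusted p = 0.026), with 2.89 and 3.18 in SEM-K2 vehicle and 2.40 and 2.75 in RS4:11 vehicle. For CD1A, a lipid-presenting surface protein, it was 3.06 at 3xEC50 (adjusted p = 0.0103), with 2.61 and 3.19 in SEM-K2 vehicle and 2.52 and 2.52 in RS4:11 vehicle. All of these vehicle values lay below the floor. For DLX2, a homeobox gene, it was -2.18 at 3xEC50 (adjusted p = 0.0103), with 4.99 and 4.98 in SEM-K2 vehicle and 2.56 and 2.55 in RS4:11 vehicle.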

How the results depend on the processing

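The main count of 2074 genes called was 1319 on the 4 vehicle arrays alone (679 higher and 640 lower) and 549 when the test was against a 2-fold change (318 higher and 231 lower). Leaving out 1 array gave 1419 to 2100 genes, with 666 to 1070 higher and 658 to 1030 lower. With the replicate block 2829 genes were called, 1460 higher and 1369 lower, and no named call was lost. With the replicate block within each line 5 of 320 named calls were lost. Without the genes of chromosomes 8 and 13, an alternative chosen after seeing the data, 1772 were called. In the obatoclax arrays the count of 3571 was 1836 on the EC50 arrays and 1680 on the 3xEC50 arrays, and 2630 to 3485 without 1 array. Fewer arrays enter each subset, and what else contributed was not tested. For the named calls, a gene absent from a setting was counted as held there. Of the 320 named calls, 289 were present without chromosomes 8 and 13. With the filter at 6 there were 301 present, and with probe sets averaged 307. Of 320 named calls 247 held without any 1 array, and 177 held in all settings, the test against 2-fold alone losing 143. Direction changed in BCL2L1, with 0.32 under the replicate block within line, 0.15 without RS4:11 vehicle replicate 1 and 0.18 without SEM-K2 vehicle replicate 2 (range -0.42 to 0.18 without 1 array). It also changed in ITGB1BP1 (0.14) and PAX5 (-0.12) when probe sets were averaged. The cause was not tested. Quantile normalisation put 47.2% of calls higher in SEM-K2, against 51.1%. Values under the floor of 4 limit what folds can show.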
